A study of Mus musculus with 30 samples.

Results

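The expression of 9 genes of the major histocompatibility complex (MHC) class I pathway was followed in mouse melanomas over 8 genotype and treatment groups. They were chosen by symbol from the deposited expression table, and all 9 were found among its 18975 genes. They are the class I heavy chains H2-D1, H2-K1 and H2-T23, the light chain B2m, the peptide transporter subunits Tap1 and Tap2, tapasin (Tapbp), the aminopeptidase Erap1 and the transactivator Nlrc5. All 9 also passed the filter on low values, which left 15002 genes for testing.

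RNA was sequenced from 30 tumors formed by B16F10 cells, a transplantable melanoma line, injected under the skin of the flank of female C57BL/6 mice. The HET mice were heterozygous for ARE-del, an allele of Ifng that lacks an AU-rich element of the mRNA, and the mice titled WT have ARE-del +/+ as their genotype, which is taken as wild type. B16F10 cells are not derived from these mice, and host cells alone carried the allele. After 7 days of growth the mice received antibody 2 times a week: 0.25 mg of anti-PD1, which blocks a T cell checkpoint receptor, 0.25 mg of agonist anti-CD40, which stimulates a receptor of antigen-presenting cells, both (the combination), or rat IgG2A as the control. HET mice gave 4 tumors after the combination, 4 after anti-CD40, 3 after anti-PD1 and 4 after IgG. WT mice gave 3 after the combination, 3 after anti-CD40, 4 after anti-PD1 and 5 after IgG. The labels do not say whether tumors of a group came from separate animals, and p-values therefore cover the spread between these samples only.

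MHC class I molecules carry short peptides from inside the cell to its surface, where CD8 T cells and natural killer cells read them. Peptides cut by the proteasome enter the endoplasmic reticulum through the TAP transporter, are trimmed there by Erap1, and are loaded onto a heavy chain paired with B2m with the help of tapasin. Interferon-gamma (IFN-γ) is a strong inducer of nearly all steps of the pathway, acting in part through IRF1 and NLRC5, and B16F10 cells are known for low class I expression until they are exposed to it.

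Of the 9 genes, 6 lie on chromosome 17 (mm10, GENCODE vM21): H2-K1 (ENSMUSG00000061232.11) at chr17:33996017-34000347, minus strand, Tapbp (ENSMUSG00000024308.10) at chr17:33915899-33929292, plus strand, and Tap1 (ENSMUSG00000037321.13) at chr17:34187553-34197225, plus strand. The others there are Tap2 (ENSMUSG00000024339.8) at chr17:34203527-34216321, plus strand, H2-D1 (ENSMUSG00000073411.7) at chr17:35262730-35267499, plus strand, and H2-T23 (ENSMUSG00000067212.8) at chr17:36029773-36032855, minus strand. B2m (ENSMUSG00000060802.8) lies at chr2:122147686-122153083, Erap1 (ENSMUSG00000021583.6) at chr13:74639568-74693201 and Nlrc5 (ENSMUSG00000074151.8) at chr8:94434356-94527272, all on the plus strand. Annotated genes of the table overlap B2m (Patl2), H2-T23 (A930015D03Rik), Tap1 (Psmb9), Tapbp (Zbtb22 and Gm19412), Nlrc5 (9330175E14Rik) and Erap1 (Cast). Zbtb22 lies on the same strand as Tapbp, and the others lie on the strand opposite to their member. Whether counting used strand is not stated, so reads of these overlaps cannot be told apart. The assignment of reads that match several heavy chain genes is not stated either, and this leaves the division between H2-D1, H2-K1 and H2-T23 uncertain.

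The promoters of B2m and the 3 heavy chains are shown because these genes encode the class I molecule itself and varied together in the tumors. RefSeq promoters (GRCm38.p6, 250 bases before to 50 after the start, 5′ to 3′ on the gene's strand) were matched for 7 of the 9 genes, all but Tap2 and Nlrc5. Capitals mark matches to an interferon regulatory factor (IRF) core (AANNGAAA), to the longer interferon-stimulated element that contains it (GAAA, any 2 bases, GAAA), or to a kappa B motif, on either strand.
B2m, chr2:122147437-122147736, plus strand: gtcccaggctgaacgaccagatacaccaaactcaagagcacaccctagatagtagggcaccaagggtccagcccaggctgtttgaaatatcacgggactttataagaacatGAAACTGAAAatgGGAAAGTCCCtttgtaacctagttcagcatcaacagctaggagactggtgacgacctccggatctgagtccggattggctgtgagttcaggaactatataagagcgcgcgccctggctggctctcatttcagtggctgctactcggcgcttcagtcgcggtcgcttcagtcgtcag
H2-D1, chr17:35262844-35263143, plus strand: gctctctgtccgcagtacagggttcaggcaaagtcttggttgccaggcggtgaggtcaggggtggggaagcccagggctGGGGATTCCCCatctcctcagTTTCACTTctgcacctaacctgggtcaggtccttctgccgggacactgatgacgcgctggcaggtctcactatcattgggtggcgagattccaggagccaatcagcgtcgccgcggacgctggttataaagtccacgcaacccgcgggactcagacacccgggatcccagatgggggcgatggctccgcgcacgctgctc
H2-K1, chr17:34000298-34000597, minus strand: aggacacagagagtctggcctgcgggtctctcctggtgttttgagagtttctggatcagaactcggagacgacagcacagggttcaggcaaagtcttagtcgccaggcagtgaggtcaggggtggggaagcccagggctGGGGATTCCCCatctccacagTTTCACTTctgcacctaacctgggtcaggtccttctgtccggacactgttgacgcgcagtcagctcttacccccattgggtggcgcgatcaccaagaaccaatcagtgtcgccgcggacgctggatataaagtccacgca
H2-T23, chr17:36032652-36032951, minus strand: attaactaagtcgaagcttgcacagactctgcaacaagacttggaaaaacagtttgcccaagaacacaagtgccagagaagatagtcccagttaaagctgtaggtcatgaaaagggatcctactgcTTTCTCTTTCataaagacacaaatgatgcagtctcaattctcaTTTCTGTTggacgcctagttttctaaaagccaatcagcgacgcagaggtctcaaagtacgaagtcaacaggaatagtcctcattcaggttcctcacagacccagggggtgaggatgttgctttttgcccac

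The H2-K1 promoter holds a kappa B match starting at -111 and an IRF core at -90, counted from the RefSeq start. H2-D1 holds the same pair of words at -171 and -150. B2m has an interferon-stimulated element at -139 followed by a kappa B match at -126, and H2-T23 has such an element at -124 and a further IRF core at -81 but no kappa B match. Erap1 has an interferon-stimulated element at -4, while the Tap1 and Tapbp windows hold none of these and only matches to the CCAAT box. No member's window matched the gamma-activated site (TTCNNNGAA). Among 27025 RefSeq promoters of this length, 24.2% hold the IRF core, 3.49% the interferon-stimulated element, 8.18% the kappa B motif, 8.47% the gamma-activated site and 37.9% the CCAAT box, so a match is a description of these letters only.

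The authors deposited log2 values of CPM (reads scaled to the size of the library), and levels below are on that scale unless CPM is named. Depth ran from 17.6 M to 36.0 M reads a library, with a median of 24.9 M, and the 9 genes had between 78 reads (Nlrc5 in HET IgG replicate 2) and 66990 reads (B2m) in a library. Melanocyte genes were high in every library, with a mean log2 value of the 14 listed genes between 9.39 and 10.67, as the B16F10 label has it. Ifng itself had 20 reads over the HET combination libraries, 40 over HET anti-CD40, 0 over HET anti-PD1 and 1 over HET IgG, against 2, 1, 9 and 0 over the WT combination, anti-CD40, anti-PD1 and IgG libraries. The labels also give each library an L number (5 to 8), whose meaning they do not explain. It follows the groups: all HET combination libraries are L8, all HET anti-PD1 libraries L7, all WT combination and WT anti-CD40 libraries L6 and all WT IgG libraries L5. HET and WT tumors given the same treatment share no L number, so the genotype and the L number cannot be told apart. HET IgG replicate 2 stood apart with 6.53% mitochondrial reads, against 0.72% to 4.46% in the others.

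The class I genes spanned a wide range of levels. Per kilobase of exon, B2m averaged 1187 CPM over the 30 libraries, H2-D1 239 CPM and H2-K1 173 CPM, followed by Tapbp with 26.4 CPM, H2-T23 with 14.9 CPM, Tap2 with 10.2 CPM, Tap1 with 10.1 CPM, Erap1 with 5.38 CPM and Nlrc5 with 5.12 CPM. The light chain was thus the most abundant and the transactivator the least. From the lowest to the highest library, Erap1 varied 4.59-fold, B2m 4.75-fold, Tapbp 5.29-fold, H2-K1 9.60-fold, H2-D1 11.0-fold, Tap2 11.4-fold, H2-T23 15.5-fold, Tap1 19.2-fold and Nlrc5 31.3-fold. Differences between the 8 groups held between 42.2% (Erap1) and 64.5% (B2m) of a member's variance, above the median of 25.2% over all genes tested.

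The HET anti-CD40 and HET combination groups had the 2 highest means of each of the 9 genes. The step down to the next group was larger than the pooled SD of the neighbouring groups for B2m (0.64), H2-D1 (1.18), H2-K1 (1.06), Tap2 (1.08), Nlrc5 (0.99) and Erap1 (0.55), but not for H2-T23, Tap1 or Tapbp. No other pair of neighbours in the order of any gene differed by more than its SD, so the remaining 6 groups cannot be ranked. HET anti-CD40 replicate 3 was the highest of the 30 libraries for all 9 genes, and HET combination replicate 3 ranked 2 or 3 for all 9. WT anti-PD1 replicate 1 was among the top 8 libraries for 6 genes, whereas WT anti-PD1 replicate 4, WT IgG replicate 2 and HET IgG replicate 1 were each among the lowest 5 for 7 genes.

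**Figure D1:**
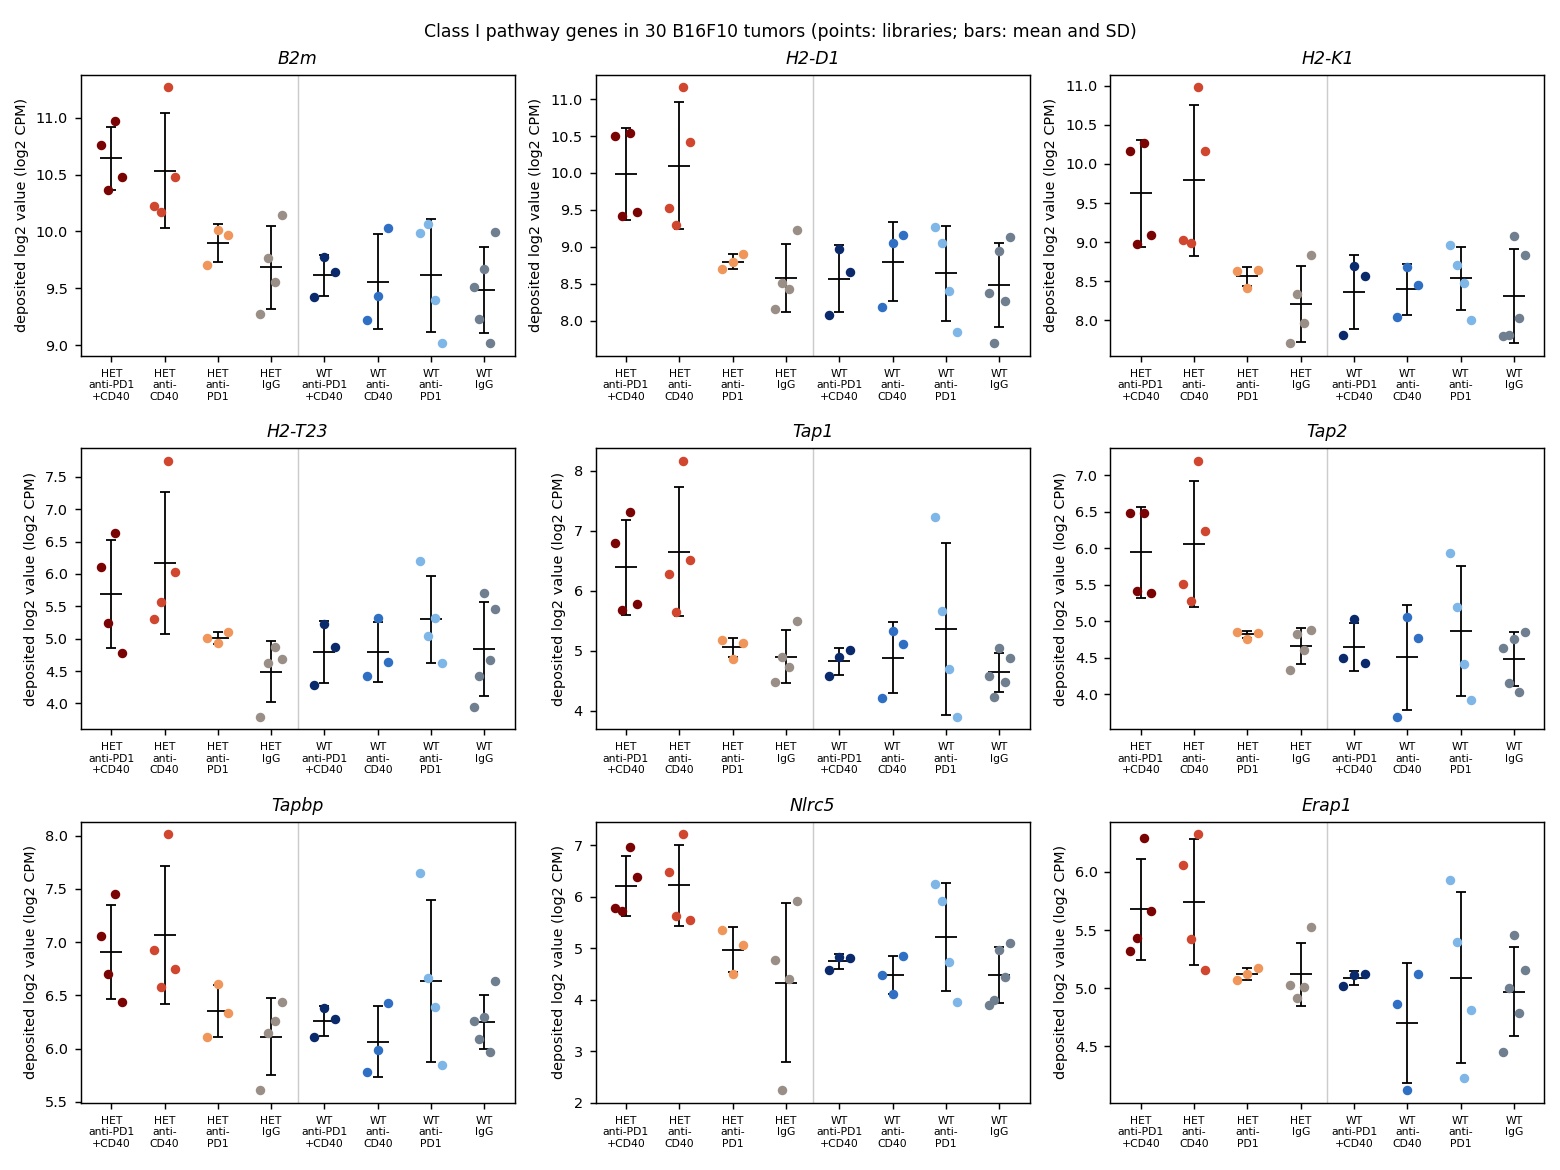
Level of each of the 9 genes (log2 CPM, vertical axis) in every library of the 8 groups, HET groups left of WT groups; points are libraries and bars the group mean with its SD (n = 3 to 5). The HET combination and HET anti-CD40 groups stand highest in each panel, and the single WT anti-PD1 library high in most panels is replicate 1.

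B2m, the light chain of every class I molecule, stood at 10.76, 10.36, 10.97 and 10.48 in the HET combination, 10.22, 10.17, 11.27 and 10.48 in HET anti-CD40, 9.70, 10.01 and 9.97 in HET anti-PD1 and 9.27, 9.77, 9.56 and 10.14 in HET IgG. WT tumors had 9.42, 9.77 and 9.65 after the combination, 9.22, 9.43 and 10.03 after anti-CD40, 9.98, 10.06, 9.40 and 9.02 after anti-PD1 and 9.51, 9.23, 9.67, 9.02 and 9.99 after IgG. Every HET tumor given anti-CD40 in either form lay above every other tumor in the study. The HET anti-CD40 group averaged 10.53 ± 0.51 and HET IgG 9.68 ± 0.37 (SD, n = 4 each), a difference of 0.85 or 1.80-fold. In WT tumors, anti-CD40 gave 9.56 ± 0.42 (SD, n = 3) and IgG 9.49 ± 0.38 (SD, n = 5).

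H2-K1, a classical heavy chain that presents peptides to CD8 T cells, had 10.16, 8.97, 10.26 and 9.09 in the HET combination, 9.02, 8.99, 10.98 and 10.16 in HET anti-CD40, 8.63, 8.42 and 8.64 in HET anti-PD1 and 7.71, 8.34, 7.96 and 8.84 in HET IgG. In CPM the HET anti-CD40 tumors ran from 508 to 2016 CPM and the HET IgG tumors from 210 to 457 CPM. The libraries of the first 2 groups fell into a high and a low pair each, and the low pairs were still above all HET IgG and anti-PD1 libraries. WT tumors had 7.82, 8.69 and 8.56 after the combination, 8.05, 8.69 and 8.45 after anti-CD40, 8.96, 8.70, 8.47 and 8.01 after anti-PD1 and 7.80, 7.81, 9.08, 8.04 and 8.84 after IgG. These WT groups overlapped one another throughout.

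H2-D1, the other classical heavy chain, followed H2-K1 closely. It averaged 9.98 ± 0.62 in the HET combination, 10.10 ± 0.86 in HET anti-CD40, 8.80 ± 0.10 in HET anti-PD1 and 8.58 ± 0.46 in HET IgG (SD, n = 4, 4, 3 and 4). The WT group means lay between 8.48 and 8.80. H2-T23, which encodes Qa-1, a nonclassical molecule read by natural killer cell receptors, averaged 5.69 ± 0.83 in the HET combination, 6.16 ± 1.10 in HET anti-CD40, 5.01 ± 0.09 in HET anti-PD1 and 4.49 ± 0.48 in HET IgG. It averaged 4.80 ± 0.48 in the WT combination, 4.80 ± 0.47 in WT anti-CD40, 5.30 ± 0.67 in WT anti-PD1 and 4.84 ± 0.73 in WT IgG. Within a library, H2-K1 minus B2m on the log2 scale averaged -1.02 ± 0.43 in the HET combination and -0.75 ± 0.51 in HET anti-CD40, against -1.47 ± 0.13 in HET IgG (SD, n = 4 each), a difference that was not tested. HET IgG was the lowest of the 8 groups in this ratio: HET anti-PD1 averaged -1.33, and the WT combination, anti-CD40, anti-PD1 and IgG tumors averaged -1.26, -1.16, -1.08 and -1.17, so that WT anti-PD1 stood close to the HET combination.

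Tap1, a subunit of the peptide transporter, had 6.79, 5.68, 7.32 and 5.79 in the HET combination, 6.28, 5.65, 8.17 and 6.52 in HET anti-CD40, 5.18, 4.87 and 5.13 in HET anti-PD1 and 4.48, 4.90, 4.73 and 5.50 in HET IgG. Every library of the first 2 groups was above every library of the last 2, the closest being 5.65 in HET anti-CD40 and 5.50 in HET IgG. WT tumors had 4.58, 4.89 and 5.01 after the combination, 4.22, 5.33 and 5.11 after anti-CD40, 7.23, 5.66, 4.69 and 3.90 after anti-PD1 and 4.58, 4.24, 5.05, 4.48 and 4.88 after IgG. The WT anti-PD1 group held both the third highest and the lowest Tap1 library of all 30.

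Tap2, the partner subunit, averaged 5.94 ± 0.62 in the HET combination, 6.06 ± 0.86 in HET anti-CD40, 4.82 ± 0.05 in HET anti-PD1 and 4.66 ± 0.25 in HET IgG. The WT group means lay between 4.48 and 4.86. Tapasin, which bridges TAP and the heavy chain, differed less: Tapbp averaged 6.91 ± 0.44 in the HET combination and 7.07 ± 0.65 in HET anti-CD40, against 6.11 ± 0.36 in HET IgG. WT anti-PD1 stood at 6.64 ± 0.76 and WT IgG at 6.25 ± 0.25. Erap1, the trimming enzyme, had 5.32, 5.43, 6.29 and 5.67 in the HET combination, 6.06, 5.42, 6.32 and 5.16 in HET anti-CD40 and 5.03, 4.92, 5.01 and 5.52 in HET IgG. These groups overlapped, and HET IgG replicate 4 was above 4 of these 8 libraries given anti-CD40.

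Nlrc5, the transactivator that binds class I promoters together with the RFX and NF-Y factors, had 5.79, 5.72, 6.96 and 6.37 in the HET combination, 6.47, 5.63, 7.21 and 5.56 in HET anti-CD40, 5.36, 4.49 and 5.07 in HET anti-PD1 and 4.77, 2.24, 4.41 and 5.92 in HET IgG. WT tumors had 4.58, 4.84 and 4.82 after the combination, 4.49, 4.12 and 4.85 after anti-CD40, 6.25, 5.92, 4.74 and 3.97 after anti-PD1 and 3.90, 4.00, 4.96, 4.44 and 5.11 after IgG. The HET IgG group was the most scattered, with 4.65 CPM in replicate 2, the library with the most mitochondrial reads, and 60.4 CPM in replicate 4. For that reason Nlrc5 overlapped between HET IgG and both HET groups given anti-CD40, although its mean differences there were the largest of the 9 genes. The low value of replicate 2 also lowers the HET IgG mean and so enlarges these differences.

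Tested group by group, no difference of a member reached an adjusted p under 0.05 (limma, Benjamini-Hochberg over 15002 genes), and neither did any other gene in these comparisons. Between HET anti-CD40 and HET IgG all 9 were higher, by 0.62 (Erap1) to 1.89 (Nlrc5) on the log2 scale with a median of 1.52. Adjusted p values were 0.174 to 0.335, and 0% of all genes were called. The ranges of 7 members did not overlap there, all but Nlrc5 and Erap1, against 3.23% of all genes that were higher without overlap. Between the HET combination and HET IgG all 9 were higher, by 0.56 (Erap1) to 1.88 (Nlrc5) with a median of 1.28. Adjusted p values were 0.251 to 0.548, and 0% of genes were called. B2m, H2-D1, H2-K1, Tap1 and Tap2 did not overlap, against 3.63% of all genes. Without HET anti-CD40 replicate 3 the median over HET IgG was 1.14. The medians were lower when marker scores, each the mean log2 value of a list of cell type markers, were held as covariates. With the leukocyte score they were 0.73 for HET anti-CD40 and 0.66 for the HET combination over HET IgG, and with muscle and keratinocyte scores together 0.72 and 0.59. These comparisons share the HET IgG libraries. The counts of genes at an unadjusted p under 0.05 (limma) were 2230 (14.9%) for anti-CD40 and 1472 (9.81%) for the combination.

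Anti-PD1 alone gave smaller differences. Between HET anti-PD1 and HET IgG all 9 were higher with a median of 0.22, 0% of genes were called, and H2-T23 alone did not overlap, against 0.953% of all genes. Between WT anti-PD1 and WT IgG all 9 were higher with a median of 0.38, 0% were called and 0 members did not overlap, against 0.3% of genes. Leaving out WT anti-PD1 replicate 1 brought it to 0.05, and the leukocyte score as a covariate to -0.01. It rose to 0.65 without WT anti-PD1 replicate 4, and also to 0.65 with the L number as a covariate. For WT anti-CD40 against WT IgG the median was 0.02, with 6 members higher and 3 lower, 0% called and 0 members not overlapping, against 0.693% of genes. For the WT combination against WT IgG it was 0.11, with 8 higher and 1 lower, 0% called and 0 not overlapping, against 0.54%. The class I genes of WT tumors thus did not pass any test of treatment, at 3 to 5 libraries a group. These small WT medians moved with the L number as a covariate, to 0.87 for anti-CD40 and 1.07 for the combination, with 0 members called. All WT tumors given anti-CD40 are L6 and all WT IgG tumors L5. That fit takes the shift from L5 to L6 from WT anti-PD1 alone, which has 3 L5 libraries and 1 L6 library, replicate 4. The adjusted medians thus rest on that 1 tumor, which was among the lowest 5 libraries for 7 genes.

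With anti-CD40 added to anti-PD1 in HET mice, all 9 genes had higher means: for the HET combination against HET anti-PD1 the median was 1.06, 0% of genes were called (adjusted p of the members 0.366 to 0.543, limma), and 7 members, all but H2-T23 and Tapbp, did not overlap. In that comparison, however, 9.53% of all genes were higher without overlap, and the median was 0.67 with the L number, 0.47 with the leukocyte score and 0.45 with muscle and keratinocyte scores as covariates. With anti-PD1 added to anti-CD40 the differences were smaller: for the HET combination against HET anti-CD40 the median was -0.12, with 1 member higher and 8 lower and 0% of genes called. In WT tumors, the combination against anti-PD1 had all 9 genes lower with a median of -0.21 and 0% of genes called, and the median was 0.08 without WT anti-PD1 replicate 1, 0.60 with the L number and 0.10 with the leukocyte score as a covariate. The WT combination against WT anti-CD40 had a median of 0.06, with 5 members higher and 4 lower and 0% called.

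**Figure D2:**
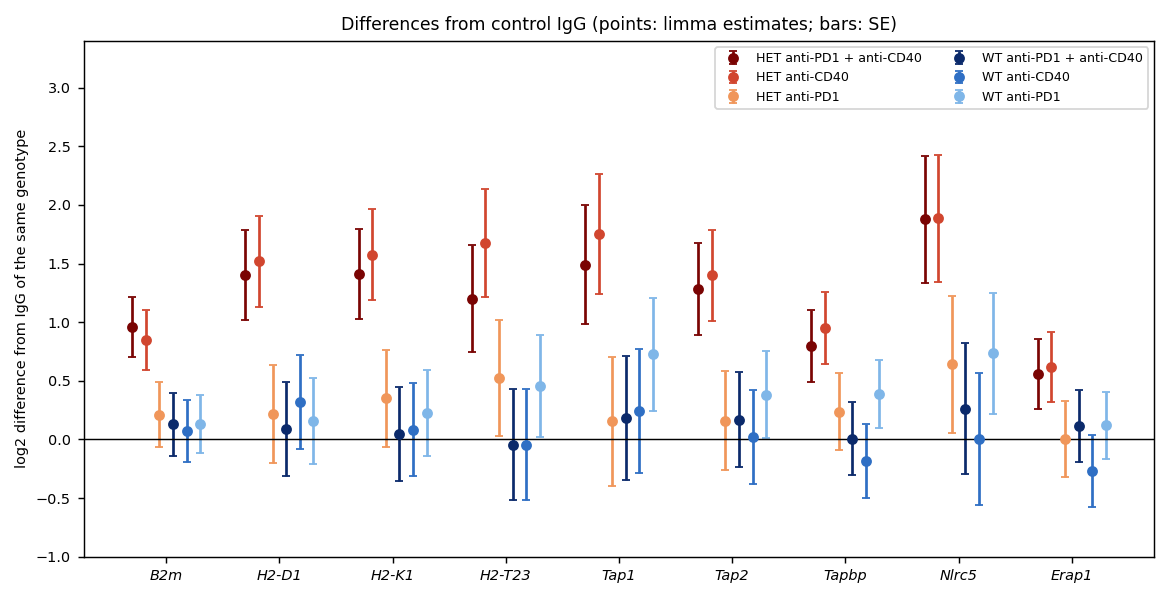
Difference from the IgG tumors of the same genotype (log2, vertical axis) for each of the 9 genes (horizontal axis) after the combination (labelled anti-PD1 + anti-CD40), anti-CD40 or anti-PD1, HET left of WT; points are limma estimates and bars their standard errors. The HET combination and HET anti-CD40 points run from 0.56 to 1.89, and those of the other 4 groups from -0.27 to 0.73.

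Set against WT tumors of the same treatment, HET tumors had higher class I means where anti-CD40 was given, without passing the test. For HET against WT anti-CD40 tumors all 9 were higher with a median of 1.37 (adjusted p 0.483 to 0.732, limma, 0% of genes called), and all but H2-T23 did not overlap, 8 of 9 against 2.36% of genes. For the HET against the WT combination all 9 were higher with a median of 1.26 (adjusted p 0.661 to 0.823, limma, 0% called), and again all but H2-T23 did not overlap, against 6.76% of genes. Covariates lowered both medians: that of the combination was 0.45 with the L number, 0.41 with muscle and keratinocyte scores and 0.52 with the leukocyte score, and that of anti-CD40 was 0.78, 0.91 and 0.71 in these fits. Under IgG, HET minus WT had a median of 0.10 with 5 members higher and 4 lower (0% called, 0 not overlapping, against 0.153%). Under anti-PD1 it had a median of -0.05 with 4 higher and 5 lower (0% called, 0 not overlapping, against 2.92%). Adjusted for the L number, these medians were 0.58 and 0.39. The interaction of genotype with treatment (the HET difference from IgG minus the WT one) had a member median of 1.38 for anti-CD40 and 1.25 for the combination and -0.09 for anti-PD1, and 0% of genes passed in each of the 3 interaction tests. Adjusted for the L number, the interaction median was 0.049 for anti-CD40 and -0.28 for the combination, the last of which turned direction. That fit ties HET to WT tumors only through HET IgG replicate 1, the only HET library of L6. It ties L5 to L6 only through WT anti-PD1 replicate 4. Both libraries were among the lowest 5 for 7 genes, so the values adjusted for the L number rest on single tumors. The interaction median was 0.82 and 0.60 with the leukocyte score, and 0.85 and 0.39 with muscle and keratinocyte scores.

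Averages over several groups gave few calls. For HET against WT averaged over the 4 treatments the member median was 0.65 and 0 members were called, against 0.0267% of genes (Ralgps2, H2-DMb1, Casp1 and Aspa). For tumors with against without anti-CD40, averaged over both genotypes, the median was 0.58, 0% of genes were called and adjusted p values of the members were 0.136 to 0.362 (limma). For tumors with against without anti-PD1 the median was 0.13, 0% were called and adjusted p values were 0.742 to 0.990 (limma).

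Because the HET anti-CD40 and HET combination tumors stood so close, they were then pooled. This choice was made after the values were seen, so these 4 comparisons describe the pattern that prompted them and are not independent evidence for it. In the 8 HET tumors given anti-CD40 in either form, 7 of the 9 genes were higher than in the 7 HET tumors given none (limma, adjusted p under 0.05), against 4.26% of all genes, of which 445 were higher and 194 lower. In the 6 WT tumors given anti-CD40 and the 9 given none, 0 members and 0% of genes were called. There 380 genes, 2.53% of those tested, had an unadjusted p under 0.05 (limma), a share below that threshold.

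H2-D1 ranged from 9.29 to 11.16 with a median of 9.98 in HET tumors given anti-CD40, against 8.15 to 9.23 with a median of 8.70 in HET tumors given none, a 2.55-fold difference (log2 1.35 ± 0.28 SE, adjusted p = 0.0193, limma). H2-K1 ranged from 8.97 to 10.98 with a median of 9.63, against 7.71 to 8.84 with a median of 8.42 in HET tumors given none, and was 2.49-fold higher (1.32 ± 0.28, adjusted p = 0.0193, limma). Neither heavy chain overlapped. B2m was 1.74-fold higher (0.80 ± 0.19, adjusted p = 0.0269, limma) and H2-T23 2.26-fold higher (1.18 ± 0.34, adjusted p = 0.0466, limma), H2-T23 with overlap. In the transporter, Tap1 was 2.92-fold higher (1.54 ± 0.38, adjusted p = 0.0272, limma) and Tap2 2.40-fold higher (1.26 ± 0.29, adjusted p = 0.0231, limma), both without overlap. Nlrc5 was 2.95-fold higher (1.56 ± 0.40, adjusted p = 0.0309, limma), with overlap. Tapbp at 0.76 ± 0.22 (adjusted p = 0.0519, limma) and Erap1 at 0.59 ± 0.22 (adjusted p = 0.101, limma) did not pass. In all, 5 members did not overlap, against 1.15% of genes.

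In WT tumors the same pooled difference was 0.12 for H2-D1, 0.04 for B2m, -0.05 for H2-K1, -0.10 for Tap2, -0.14 for Erap1, -0.15 for Tap1, -0.23 for Nlrc5, -0.27 for H2-T23 and -0.28 for Tapbp, with adjusted p values of 0.965 to 0.994 (limma). No member was without overlap there, against 0.0133% of genes. Adjusted for the L number, most members turned direction: all 9 WT differences were then above 0, between 0.18 (Erap1) and 1.56 (Tap1) with a median of 0.73 and 0 members called. All 6 WT tumors given anti-CD40 are L6. Of the 9 given none 1 is L6 (WT anti-PD1 replicate 4) and the rest L5. The pooled WT result and the L number can thus hardly be told apart, and the adjusted differences rest on that 1 tumor. The 95% interval of the WT fold ran from 0.72 to 1.64 for H2-D1 and from 0.52 to 1.55 for Tap1; these are intervals of single genes, and the data allow folds within them. The interaction, the HET difference minus the WT difference, had a member median of 1.36, but 0% of genes passed. Adjusted p values of the members were 0.307 to 0.536 (limma), with 1145 genes (7.63%) at an unadjusted p under 0.05. The difference between the genotypes in this response thus did not pass its own test, and its member median was 0.078 with the L number, 0.58 with the leukocyte score and 0.78 with muscle and keratinocyte scores as covariates.

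Among tumors given anti-CD40 in either form, 5 members were higher in the 8 HET than in the 6 WT tumors, against 0.767% of all genes (111 higher and 4 lower). They were B2m at 1.00 ± 0.20 (adjusted p = 0.0199, limma), H2-D1 at 1.36 ± 0.30 (0.0270), H2-K1 at 1.33 ± 0.29 (0.0318), Tap1 at 1.67 ± 0.39 (0.0378) and Tap2 at 1.42 ± 0.30 (0.0231). Nlrc5 at 1.60 ± 0.41 (0.0575), Erap1 at 0.82 ± 0.23 (0.0826), Tapbp at 0.83 ± 0.23 (0.0836) and H2-T23 at 1.13 ± 0.35 (0.132) did not pass. All but H2-T23 were without overlap, against 0.82% of genes.

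The calls of the pooled comparisons rested on single libraries, although the sizes did not. In HET tumors with against without anti-CD40, 0 members were called when HET anti-CD40 replicate 3, HET combination replicate 3 or HET anti-PD1 replicate 2 was left out. In the same comparison 2 were called without HET anti-CD40 replicate 4 or HET combination replicate 1, and 4 without HET anti-PD1 replicate 3 or HET IgG replicate 1, 2 or 3, while the member median stayed between 1.07 and 1.39. Among tumors given anti-CD40, 0 members were called in HET against WT when any one of HET anti-CD40 replicate 3, HET combination replicate 3, WT anti-CD40 replicate 1 and WT combination replicate 1 was left out. There 1 member was called without HET combination replicate 1 or WT combination replicate 3, 2 when HET anti-CD40 replicate 4 was left out and 3 when WT anti-CD40 replicate 3 was, with a member median of 1.13 to 1.46. With the L number as a covariate 0 members were called in either. Within L7, the 3 HET anti-CD40 libraries exceeded the 2 HET IgG libraries by a member median of 1.47 and the 3 HET anti-PD1 libraries by 1.18. The HET anti-PD1 libraries exceeded the HET IgG libraries by 0.24. L7 includes HET anti-CD40 replicate 3, the highest library for all 9 genes, and HET IgG replicate 2, the library with the most mitochondrial reads. In L8, HET anti-CD40 replicate 4 stood below HET IgG replicate 4 for Nlrc5 (5.56 and 5.92) and Erap1 (5.16 and 5.52). It stood above that library for the other members. These are values without a test.

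**Figure D3:**
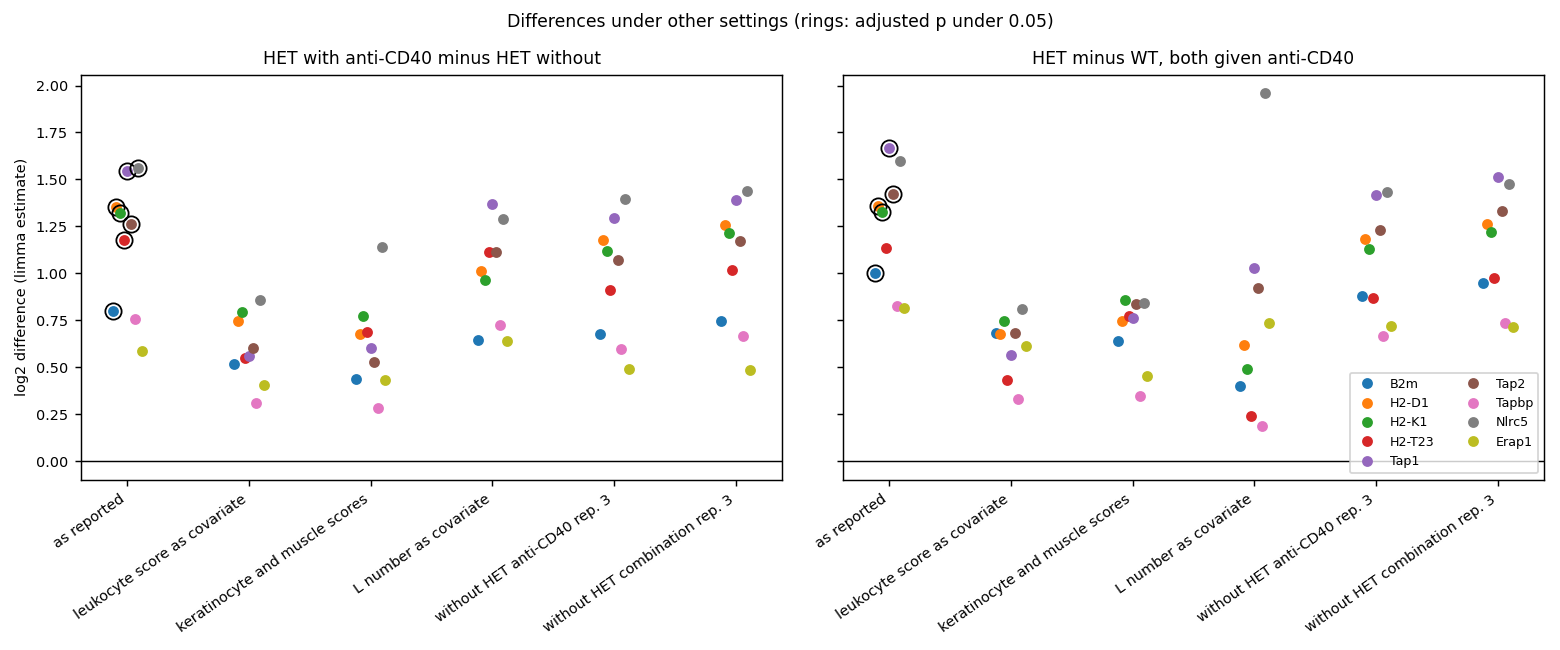
Pooled differences of the 9 genes (log2, vertical axis) as reported and under 5 other settings (horizontal axis), for HET tumors with against without anti-CD40 (left) and HET against WT tumors given anti-CD40 (right); points are limma estimates and rings mark an adjusted p under 0.05. All points stay above 0, with 7 and 5 rings as reported and none under the other settings shown.

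Other genes of the class I pathway moved unevenly in the HET tumors given anti-CD40 compared with HET tumors given none, where the median of all genes was -0.01. Of 14 other class I and class I-like genes kept, 7 were higher and 1 lower, with a median of 0.62. H2-Q4 (1.22 ± 0.29, adjusted p = 0.0270, limma), H2-T22 (1.04), H2-M3 (0.95), H2-Q6 (1.64), H2-Q7 (1.65), H2-T10 (1.87) and H2-T24 (2.36) were higher. Mr1, which presents vitamin metabolites to MAIT cells, was lower by -0.85 ± 0.21 (adjusted p = 0.0273, limma). Of 21 peptide supply and loading genes 6 were higher and 0 lower, with a median of 0.18. These were the immunoproteasome subunits Psmb8 (2.75 ± 0.52) and Psmb9 (2.62 ± 0.49, adjusted p = 0.0171 each, limma) and Psmb10 (1.32), the proteasome activators Psme1 (0.70) and Psme2 (0.96), and Tapbpl (1.15), a tapasin relative. The chaperones did not pass, with 0.15 for Hsp90ab1, 0.18 for Hsp90aa1, 0.18 for Hspa5 and 0.04 for Calr.

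Of 21 transcription factors, cofactors and chromatin enzymes known to act on class I genes, 4 were higher and 0 lower, with a median of -0.03. Among them were Irf1 (1.34 ± 0.30, adjusted p = 0.0216, limma), Irf8 (1.92) and Ciita, the class II transactivator (2.96). Stat3 (-0.28), Ezh2 (0.34), Ep300 (-0.85) and Nfya (-0.03) did not pass. Of 11 genes of the IFN-γ receptor and its feedback only Socs1, a feedback inhibitor, was called (1.42), with a median of -0.01. Jak1 (-0.31), Ptpn1 (-0.04), Ifngr2 (0.14) and Ptpn6 (-0.24) did not pass. Of 30 IFN-γ response genes outside the class I set, 21 were higher and 0 lower, with a median of 1.93. Among them were the T cell attractants Cxcl9 (3.15), Cxcl10 (1.70) and Ccl5 (1.97), the guanylate-binding proteins Gbp2 (2.38), Gbp3 (1.29), Gbp4 (2.90), Gbp5 (2.12) and Gbp8 (3.03), the immunity-related GTPases Iigp1 (2.67), Igtp (1.94), Irgm2 (1.07), Ifi47 (2.13) and Tgtp1 (3.16), and Cd74 (3.45), Zbp1 (2.72), Serpina3g (2.24) and Batf2 (1.58), besides Irf1, Irf8 and Socs1.

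In WT tumors with against without anti-CD40, 0 genes of any of these lists were called, and the IFN-γ response median was -0.29. In HET against WT tumors given anti-CD40, 6 other class I genes, 2 peptide supply genes (Psmb8 and Psmb9), 2 transcription factors (Irf8 and Ciita), 0 receptor genes and 9 IFN-γ response genes were higher and none was lower, with medians of 0.69, 0.23, -0.05, 0.07 and 1.78.

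**Figure D4:**
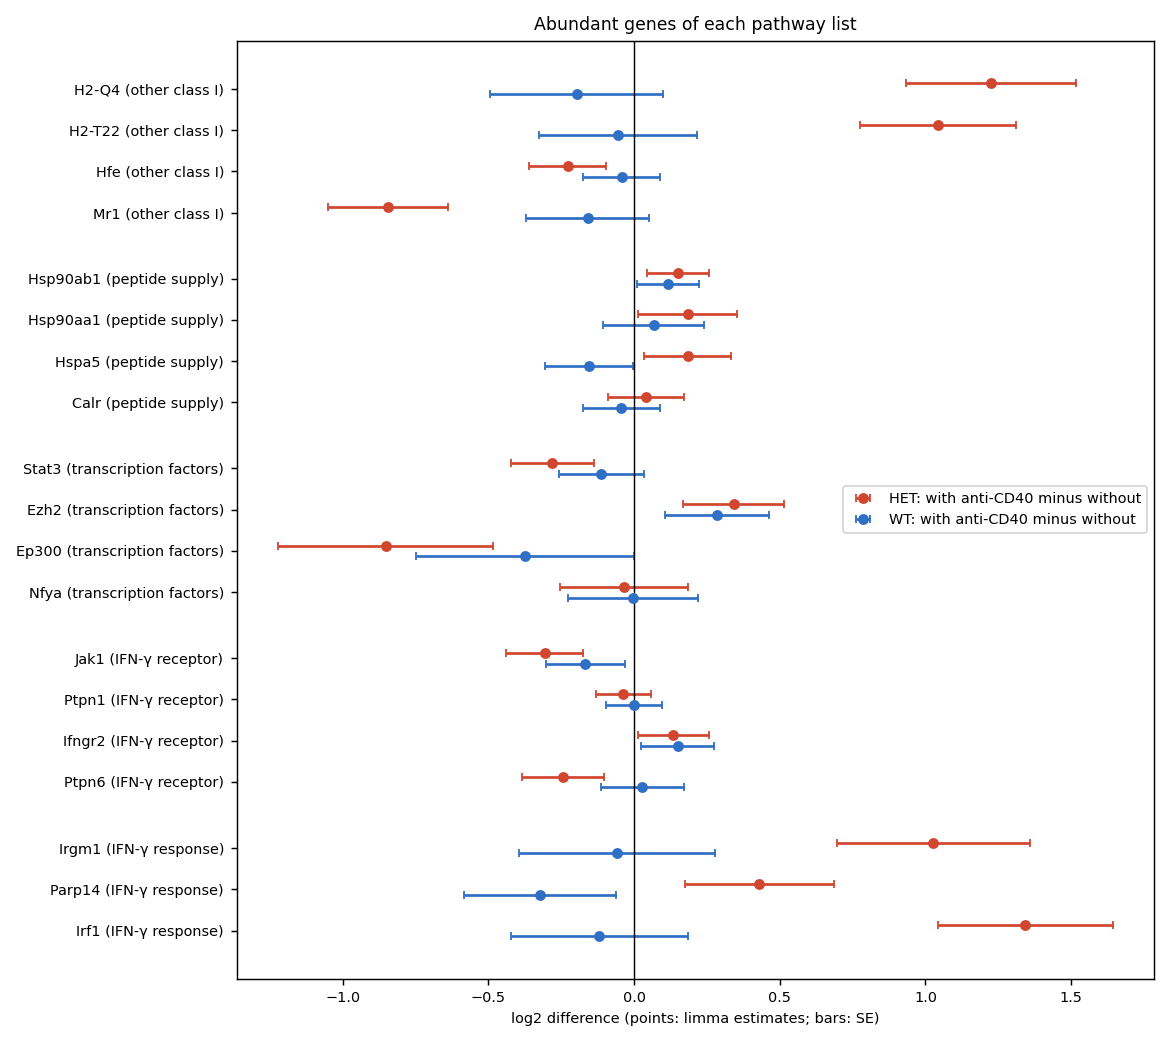
Difference between tumors with and without anti-CD40 (log2, horizontal axis) for abundant genes of each related list (vertical axis), HET above WT for each gene; points are limma estimates and bars their standard errors. In HET tumors H2-Q4, H2-T22 and Irf1 lie right of 0 at 1.04 to 1.34 and Mr1 lies left at -0.85, while the chaperones and receptor genes lie between -0.31 and 0.18.

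Markers of several cell types moved with the class I genes. In HET tumors with against without anti-CD40, where 4.26% of all genes were called, 5 of 15 leukocyte genes were higher (Itgb2, Cd52, Ptprc, Coro1a and Cd53; median 1.07). So were 6 of 8 T and natural killer cell genes kept of 18 listed (Cd8a, Cd3g, Nkg7, Gzmb, Klrk1 and Il2rb; median 2.19) and 5 of 11 macrophage genes (among them Lyz2, C1qb, Fcgr1 and Aif1; median 1.64). Further, 5 of 18 skeletal muscle genes (median 2.62) and 5 of 13 fibroblast genes (median 1.34) were higher. Of 18 keratinocyte genes 1 was called (Trp63; median 3.47), a share near that of all genes. Of 14 melanocyte genes (median -0.31) and 11 endothelial genes (median 0.26), 0 were called. The T and natural killer cell genes kept had passed the filter through 3 libraries or more, so their count is of genes seen where they were high. The leukocyte score, the mean log2 value of the list, ran from 2.72 to 4.28 in the HET combination and 2.84 to 4.43 in HET anti-CD40, above the 1.85 to 2.64 of HET anti-PD1 and 1.83 to 2.65 of HET IgG. It was 1.58 to 2.41 in the WT combination, 1.52 to 3.06 in WT anti-CD40, 1.47 to 3.76 in WT anti-PD1 and 0.77 to 2.96 in WT IgG. Summed leukocyte CPM were 135 to 387 in the HET combination, 155 to 439 in HET anti-CD40, 87.0 to 146 in HET anti-PD1 and 89.0 to 125 in HET IgG. Keratinocyte markers differed by library, in both genotypes: their summed CPM ran from 14.9 to 484 in the HET combination, 12.3 to 1261 in HET anti-CD40, 14.6 to 26.9 in HET anti-PD1 and 11.3 to 23.5 in HET IgG. The same sum was at most 17.4 CPM in the WT combination, 15.6 to 2681 CPM in WT anti-CD40, 13.1 to 113 CPM in WT anti-PD1 and at most 433 CPM in WT IgG, so the highest keratinocyte level of the study was in a WT anti-CD40 tumor. Krt5 had no read in 2 of 4 HET IgG, 2 of 3 WT combination, 2 of 4 WT anti-PD1 and 3 of 5 WT IgG libraries. In HET against WT tumors given anti-CD40, where 0.767% of all genes were called, 5 of 18 skeletal muscle genes were higher (Pvalb at 4.58, Ckm at 3.41, Atp2a1 at 3.87, Tnni2 at 4.22 and Myh4 at 5.83; median of the list 3.67). So were 1 of 15 leukocyte genes (Cd52 at 2.25; median 1.18) and 1 of 11 macrophage genes (C1qc at 2.24; median 1.75). There 0 genes were called of the T and natural killer cell (median 1.56), keratinocyte (1.71), fibroblast (0.47), endothelial (0.38) and melanocyte (-0.03) lists. Summed muscle CPM ran from 98.2 to 420 in the HET combination and 54.1 to 737 in HET anti-CD40, against 13.3 to 58.3 in the WT combination and 19.0 to 56.9 in WT anti-CD40. With the leukocyte score as a covariate 0 members were called in either pooled comparison and the member medians were 0.56 and 0.68. A fit that held both the keratinocyte and the muscle score called 0 members, and the medians were 0.60 and 0.76. In these bulk samples a change in the number of cells of a type and a change in RNA per cell cannot be told apart. The part of these cells in the result was not tested.

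Within groups, the members rose and fell together from tumor to tumor. After the group means were subtracted, the correlation over the 30 libraries of each gene with the mean of the standardized members, which includes that gene, was 0.95 for Tap1, 0.94 for H2-D1, 0.92 for Tapbp, 0.91 for Tap2 and B2m, 0.89 for H2-K1, 0.86 for H2-T23, 0.69 for Erap1 and 0.68 for Nlrc5. The closest pairs were H2-D1 with H2-K1 (0.94) and Tap1 with Tap2 (0.93), and the loosest was Nlrc5 with H2-T23 (0.41). Outside the set, the 8 genes most like the mean of the members by the same measure were H2-Q4 (0.94), Ifi47 (0.94), Psmb8 (0.93), Igtp (0.93), Psmb9 (0.92), Zbp1 (0.92), Il18bp (0.92) and Irf1 (0.91). Of the genes kept, 42 exceeded 0.8, and the median over all of them was -0.004.

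The 26 relations of the members with Nlrc5, the leukocyte score and the IFN-γ response score were tested by permutation within groups (100000 resamples, two-sided, Benjamini-Hochberg over the 26). Nlrc5 was related to all 8 other members, with Pearson r from 0.41 (H2-T23) to 0.71 (Erap1), largest permutation adjusted p = 0.0461, and Spearman rho from 0.43 to 0.82, largest permutation adjusted p = 0.0513. Without the 2 libraries farthest from the Nlrc5 median r was 0.56 to 0.82, and within single L numbers it ranged from 0.16 to 0.89. The leukocyte score was related to 7 members, with r up to 0.72 for Tap1, but not to Erap1 (r = 0.23, permutation adjusted p = 0.393) or B2m (permutation adjusted p = 0.0727). On ranks its rho ran from 0.21 to 0.69 and Tapbp was not related (rho = 0.42, permutation adjusted p = 0.0614). Its r was 0.25 to 0.74 without the 2 farthest libraries and -0.25 to 0.91 within single L numbers, and 3 members were related when HET anti-CD40 replicate 3 and HET IgG replicate 2 were left out. The IFN-γ response score was related to all 9, with r from 0.71 (Erap1) to 0.91 (Tap1), rho from 0.64 to 0.87, and largest permutation adjusted p = 0.00399. That r was 0.53 to 0.83 without the 2 farthest libraries and 0.25 to 0.98 within single L numbers.

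**Figure D5:**
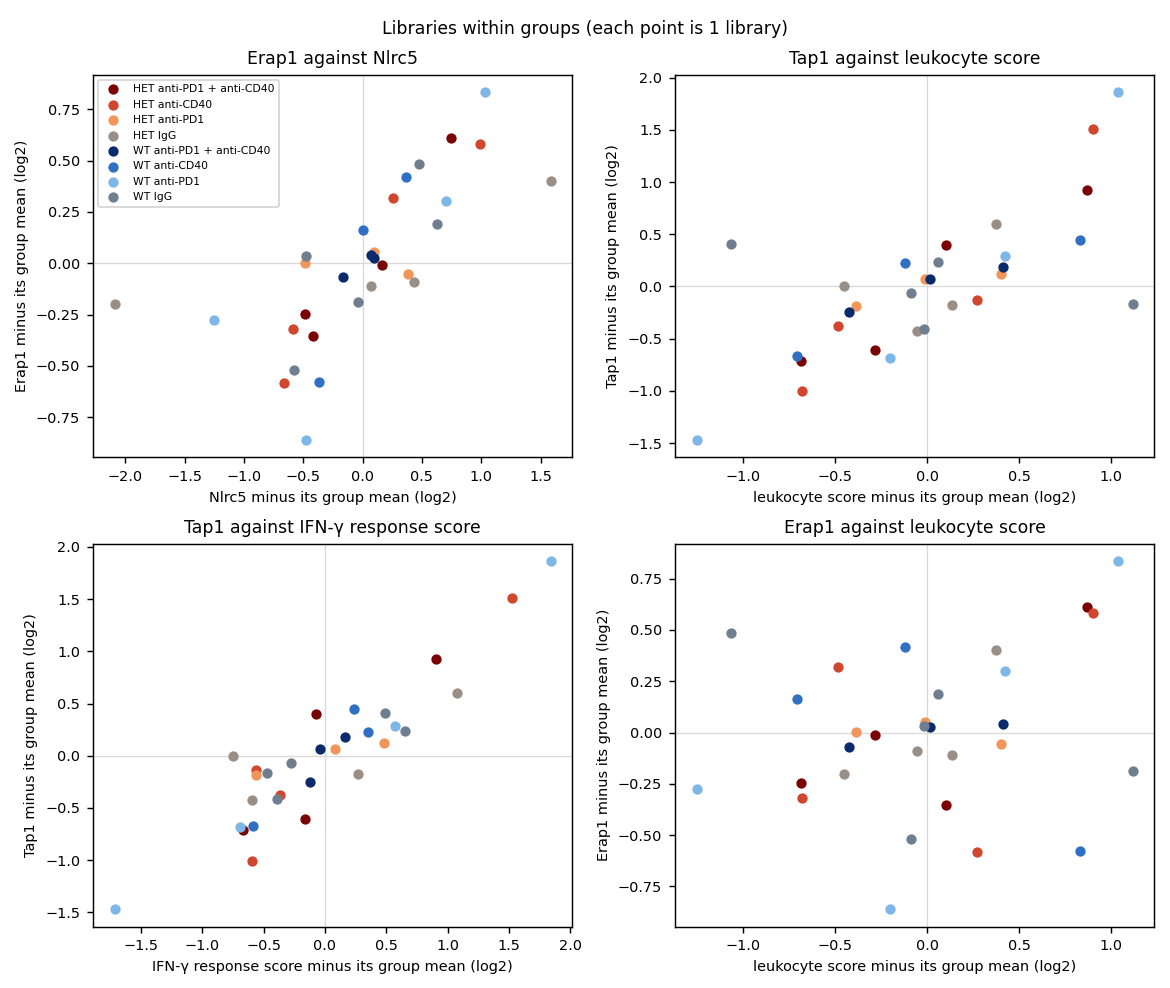
Deviations from the group mean (log2, both axes) in the 30 libraries for Erap1 against Nlrc5, Tap1 against the leukocyte score, Tap1 against the IFN-γ response score and Erap1 against the leukocyte score; each point is a library, coloured by group. Pearson r is 0.71, 0.72, 0.91 and 0.23 in these panels.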

How the data were processed

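The deposited table holds log2 CPM values made by the authors for 18975 genes and 30 libraries: per the submitters' processing notes, alignment used STAR and mm10 and normalization used edgeR, with versions not given. Read back from the values, each is log2 of CPM over an effective library size with a prior count scaled to that size. Whole reads were recovered for 100% of the values (tolerance 0.01 reads). A gene with 0 reads stands at -3.64, and 1 read is worth 0.0276 to 0.0596 CPM, which sets the precision of low values.

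Genes above a log2 value of 0 in at least 3 libraries (15002) were fitted with limma 3.58.1 in R 4.3.3, with 1 mean for each of the 8 groups, moderated test with trend, and Benjamini-Hochberg adjustment over all genes kept. Errors of differences are limma's standard errors. Of 24 comparisons, 4 were added after the values were seen. The script was tested on simulated data. Relations across libraries used Python 3.11.15, numpy 2.4.6 and pandas 2.3.3, and figures matplotlib 3.10.9. Exon lengths and coordinates come from GENCODE vM21 (18837 identifiers found).

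The class I members and the gene lists were chosen with earlier results of these data known. All members are named in every group. From each list the 4 most abundant genes and the called genes are named, and the 8 genes most like the members by correlation; some listed genes that entered the counts and medians are not reported here by name. Replicate numbers do not pair the samples. Alternatives covered the filter, pseudocount, scaling, covariates, library weights, single libraries and a replicate block.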

Additional observations from a re-analysis of the deposited data

How the results depend on the processing

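Over 5418 recomputed member differences, 5107 kept their direction and side of the threshold or moved by less than 1 SD, and 139 moved further. Besides these, 136 called ones lost the call and 36 gained one. Most of the 5418 were not called as reported, so the 136 losses are to be read against the called differences only. The called ones were 7 members in HET with against without anti-CD40, each recomputed under 27 alternatives. The others were 5 members in HET against WT among tumors given anti-CD40, each under 26 alternatives. No called difference changed sign, while 326 of all differences did, and the largest of these had a reported size of 1.7 on the log2 scale. Where a value changed, the cause was not tested. The lowest read count of a member in a library was that of Nlrc5, with 78 reads in HET IgG replicate 2.

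Leaving out 1 library, genes called ran from 0 to 1876 for HET with against without anti-CD40 (members 0 to 8), 0 to 297 for HET against WT among tumors given anti-CD40 (members 0 to 7), 0 to 10 for HET against WT averaged, 0 to 21 for with against without anti-CD40 averaged, 0 to 6 for the HET combination against HET IgG, and 0 to 1 against HET IgG for HET anti-CD40 and HET anti-PD1, and for the HET combination against HET anti-PD1. Where a group was left with few libraries, the shared spread of all groups was used.

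In HET with against without anti-CD40 (639 genes, 7 members), 0 genes and 0 members were called with any of 3 covariate settings, the L number, the leukocyte score, or the keratinocyte and muscle scores; the member median was 0.56 and 0.60 with these scores. The count was 274 genes with a mean log2 value above 1, 4892 with library weights, 224 with a replicate block, and 1 gene and 0 members without HET anti-CD40 replicate 3 and HET IgG replicate 2 together. In HET against WT among tumors given anti-CD40 (115 genes, 5 members), the same 3 covariate settings gave 0 genes and 0 members, with member medians of 0.62 (L number) and 0.68 (leukocyte score). The count was 45 with a mean above 1, 192 on log2(CPM + 1), 75 with a replicate block, 38 with limma voom on the recovered reads (4 members; 488 genes and 6 members for HET with against without), 652 genes and 9 members with library weights, and 13 genes and 0 members without those 2 libraries. Fitting only the groups compared left 2 members.

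HET against WT averaged (4 genes) gave 2 on plain totals, 179 genes and 4 members with library weights, 1 without the 2 libraries, and 0 with voom or with the L number, leukocyte, or keratinocyte and muscle covariates. Library weights gave 1 gene for HET anti-PD1 and 47 genes with 1 member for the combination against HET IgG, 2 and 6 genes for HET against WT anti-CD40 and combination, 253 for the WT combination against anti-CD40, 1438 genes and 5 members for the HET combination against anti-PD1 (54 genes fitting only these groups), 4 for WT with against without anti-CD40, and 5120 genes and 9 members for the average over both genotypes, where no filter gave 14.

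Under the L number covariate, the member median was 0.87 for WT anti-CD40 and 1.07 for the WT combination against WT IgG, 0.45 for the HET against the WT combination, 0.60 for the WT combination against anti-PD1, 0.73 for WT with against without anti-CD40, and 0.049, -0.28 and 0.078 for the anti-CD40, combination and pooled interactions. With the keratinocyte and muscle scores it was 0.72 for HET anti-CD40 and 0.59 for the HET combination against HET IgG, 0.41 for the HET against the WT combination and 0.39 for the combination interaction. With the leukocyte score HET anti-CD40 against HET IgG gave 0.73, and it was 0.71 and 0.52 for HET against WT anti-CD40 and combination, and 0.58 for the pooled interaction. The leukocyte score was related to 3 members without the 2 libraries, against 7. The L number fit ties L5 to L6 only through WT anti-PD1 replicate 4, and HET to WT tumors only through HET IgG replicate 1.

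Plain totals moved the median of all genes by 0.10 for HET anti-CD40 and 0.13 for the HET combination against HET IgG, and the members stayed above it. Replicate numbers did not pair samples: same-numbered tumors had a median correlation of -0.03 over 28 group pairs, other pairs 0.01, and 1 group pair had all correlations over 0.1; the block moved no other count by over 1.5 times. The planned edgeR and DESeq2 fits on the recovered reads were not run; limma voom on those reads was run in their place.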

Other observations

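WT anti-PD1 tumors, which gave no call, had the largest SD of the 4 WT groups for 7 of the 9 genes, all but H2-K1 and H2-T23. Their IFN-γ response score (the mean log2 value of the 30 listed genes kept) ran from 1.45 to 5.01, against 1.93 to 3.06 in WT IgG tumors. Their leukocyte score ran from 1.47 to 3.76, against 0.77 to 2.96 in WT IgG tumors, and 2 of the 4 WT anti-PD1 libraries held the 9 Ifng reads of the group. WT anti-PD1 was also the only WT group with more than 1 L number (3 L5 libraries and 1 L6 library). The L6 library, replicate 4, was the lowest of the group in both scores. How far the spread of the group follows the L number was not tested.

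Within a library, Tap1 minus Tapbp on the log2 scale averaged -0.52 ± 0.40 in the HET combination and -0.41 ± 0.47 in HET anti-CD40, against -1.29 ± 0.40 in HET anti-PD1 and -1.21 ± 0.25 in HET IgG (SD, n = 4, 4, 3 and 4). It averaged -1.43, -1.18, -1.27 and -1.61 in the WT combination, anti-CD40, anti-PD1 and IgG tumors. This difference was not tested, and reads of Psmb9, which overlaps Tap1, cannot be told apart from it.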
